A study of Mus musculus with 3 samples.

Results

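The comparison covers 9041 protein-coding genes, of 21970 protein-coding genes and 56748 genes of every type in the count table. Each had at least 10 CPM (read counts scaled to the size of the library) with vehicle or with TGF-beta1, and 15135 protein-coding genes had any count in these 2 libraries. The cells were fibroblasts of wild-type mice fed a high-fat diet. They were isolated from visceral fat, out of its stromal vascular fraction (the cells that are not mature adipocytes), by magnetic removal of cells carrying CD45, CD31 or Ter119. One culture received human TGF-beta1 (transforming growth factor beta 1, a recombinant protein) at 3 ng/mL for 24 h, and the comparison culture received vehicle, for which no time is given. A further culture received recombinant mouse oncostatin M (Osm), a cytokine of the interleukin 6 family, at 3 ng/mL for 24 h, and its values stand beside those of the members. The series is about how macrophages and fibroblasts communicate when fat becomes fibrotic in obesity, and the comparison asks which genes differed in fibroblasts given TGF-beta1. The sources used here do not give the age of the mice, their number per culture or the passage.

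TGF-beta1 is secreted in a latent complex bound to matrix. Once released, it joins a type II and a type I receptor kinase, which phosphorylate Smad2 and Smad3, and these enter the nucleus with Smad4 and act with other transcription factors. In fibroblasts the pathway is known for matrix synthesis, for the contractile myofibroblast state and for feedback through inhibitory Smads and ligand-binding proteins.

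With 1 library per condition, differences have no replicate check and no p-value is given. Counted reads numbered 18336068 with vehicle and 18533741 with TGF-beta1, and a count of 0 would allow up to 0.163 CPM in each. The set took 97.2% of the counts with vehicle and 97.4% with TGF-beta1. All 12 fibroblast markers were above 30 CPM in both libraries, summing to 27240 CPM with vehicle and 31280 CPM after TGF-beta1. They did not move together: Dcn and Col6a1 were more than 2-fold lower with TGF-beta1, Pdgfra and Lum had log2 ratios of -0.69 and -0.67, Pdgfrb of -0.09 and Col1a1 of 0.91. The 7 erythroid markers were at 0 in both libraries, and 9 of 10 adipocyte markers and 11 of 14 leukocyte markers were under 1 CPM in both. Summed levels with vehicle and TGF-beta1 were 20 and 15.57 CPM for leukocyte markers, 56.74 and 37.98 CPM for endothelial markers, 43.96 and 52.68 CPM for mesothelial markers, and 11.63 and 7.596 CPM for adipocyte markers. The 10 mural cell markers summed to 87.49 and 134.7 CPM, but Cspg4 alone went from 8.53 to 74.9 CPM and the other 9 together from 78.96 to 59.83 CPM, with Ndufa4l2 and Abcc9 among the lower (log2 ratios of -1.38 and -1.29). In bulk RNA, fewer cells of a type and less RNA per cell cannot be told apart, and the part of these cells in the results was not tested.

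A gene counted as higher or lower when its log2 ratio, TGF-beta1 over vehicle with 0.5 added to each count, reached 1 in either direction and the exact 95% interval of its count ratio lay clear of 1. These intervals stand in brackets after each fold, and where 3 levels follow each other they are for vehicle, Osm and TGF-beta1, in that order (2 levels: vehicle and TGF-beta1). They cover counting error only, and they compare 2 libraries, not 2 conditions. By this rule 88 genes were higher (0.973% of the set) and 210 were lower (2.32%), together 3.30%. At these shares a short list may hold no higher or no lower gene, so such a count is not a result about the list. All other genes lay within 2-fold, and the set had a median log2 ratio of 0.04, 5th and 95th percentiles of -0.68 and 0.55, 62.2% of genes within 1.2-fold and 55.6% with a ratio above 0, against which the counts of list members above 0 that follow are to be read. The difference was at least 3-fold for 29 higher genes (0.321%) and 71 lower genes (0.785%), and at least 5-fold for 8 and 19. A 1.5-fold limit would have taken 378 higher genes (4.18%) and 573 lower genes (6.34%). The higher genes together went from 11531 CPM with vehicle to 31508 CPM with TGF-beta1, and the lower genes from 42511 to 16669 CPM.

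**Figure D1:**
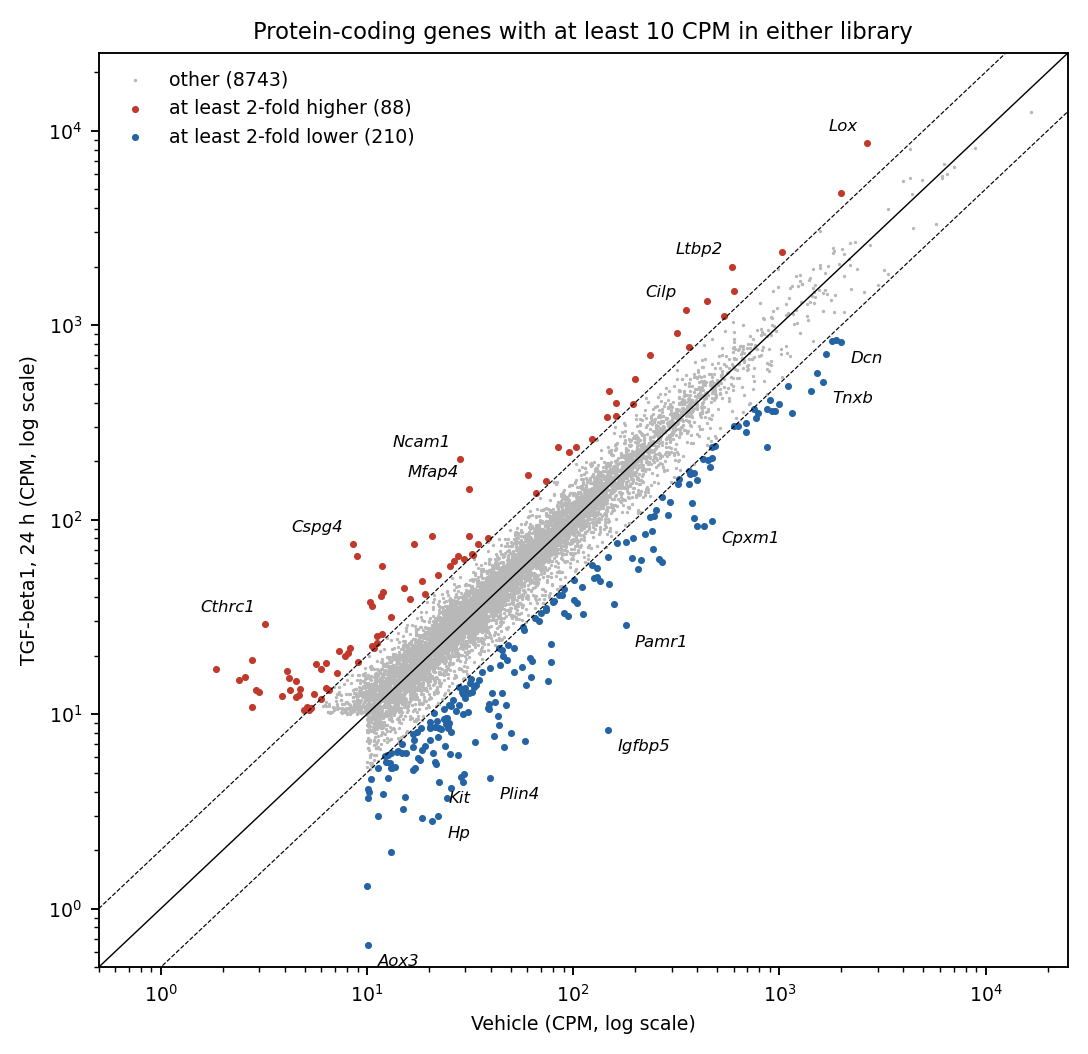
Level of each of the 9041 genes with vehicle (x axis, CPM, log scale) and with TGF-beta1 (y axis, CPM, log scale), 1 library each; the solid line marks equal levels and the dashed lines 2-fold differences. The 88 higher genes (red) and 210 lower genes (blue) occur over a wide range of levels, the higher ones from Sorcs2 at 1.85 CPM with vehicle to Lox at 2667 CPM.

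The 10 CPM limit itself adds genes that differ. Of the 8553 genes with at least 10 CPM in both libraries 53 were higher and 132 lower, while 35 of the higher genes were under 10 CPM with vehicle and 78 of the lower genes were under 10 CPM with TGF-beta1. Just inside the limit, where the higher of the 2 levels was 10 to 11 CPM, 5 of 183 genes were higher and 6 lower. Just outside, at 9 to 10 CPM, 5 of 233 were higher and 7 lower.

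The differences were concentrated in genes on the lists of secreted products. Of 374 genes on the lists of secreted ligands, matrix proteins, proteases and their inhibitors, 35 were higher and 85 lower, which is 32.1% of them against 2.05% of the other 8667 genes. These lists held 39.8% of all higher and 40.5% of all lower genes. Receptors came next, with 11 of 207 higher and 9 lower (9.66%), followed by genes of metabolism and cell state, with 8 of 329 higher and 13 lower (6.38%). For genes of signalling and the cytoskeleton the counts were 11 of 273 higher and 4 lower (5.49%), and for transporters and channels 2 of 279 and 7 (3.23%, near the 3.30% of the whole set). Transcription factors had the lowest share of the listed classes, with 2 of 614 higher and 9 lower (1.79%). Among the 7035 genes on no list the share was 1.63%. These shares describe the 2 libraries and were not tested. The lists were chosen with earlier results of these data known, so the shares are not independent evidence. Lists of secreted products also hold genes of membrane proteins, such as Cspg4 and Mmp14. Some secreted products, such as that of Pamr1, are on no list.

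**Figure D2:**
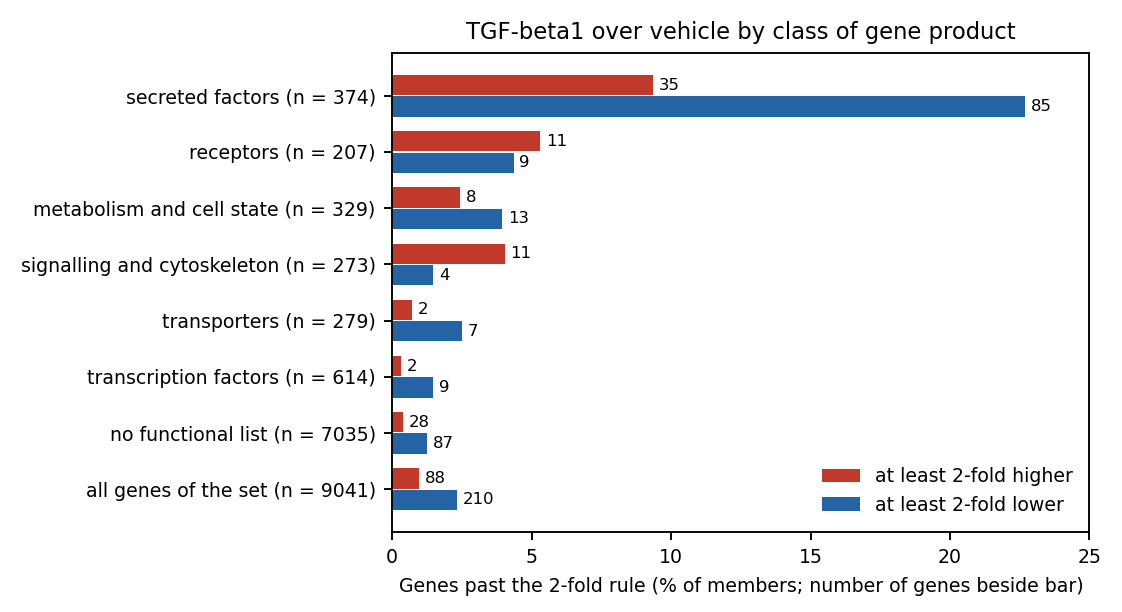
Percentage of the genes of each class (x axis) that were at least 2-fold higher (red) or lower (blue) with TGF-beta1, with the number of genes beside each bar; a gene may be on lists of more than 1 class. Secreted factors reach 9.36% higher and 22.7% lower, against 0.973% and 2.32% of all genes of the set.

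The secreted genes also had more counts, with a median vehicle level of 94.9 CPM against 42.9 CPM for the others, so the shares were compared within ranges of level. At 10 to 30 CPM, 35.6% of secreted and 3.10% of other genes passed the rule. The shares were 26.8% and 1.47% at 30 to 100 CPM, 32.9% and 0.946% at 100 to 300 CPM, 37.9% and 3.18% at 300 to 1000 CPM, and 26.7% and 7.14% above that. The secreted genes that entered by a family pattern in the symbol, such as all genes named Col or Mmp, had 24 of 214 higher and 42 lower (30.8%), and those entered by name 11 of 160 higher and 43 lower (33.8%).

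Promoter sequence is shown for a gene each of the contractile apparatus, the secreted cytokines and the matrix proteases, since Acta2 and Il11 were higher with TGF-beta1 and Mmp3 was lower. Each is the 250 bases before a RefSeq start site of the GRCm38.p6 assembly, 5′ to 3′ on the gene's strand, with exact motif matches in capitals. Acta2 is at chr19:34255374-34255623 on the minus strand, Il11 at chr7:4778142-4778391 on the minus strand (the second of its 2 listed starts; the window of the first, chr7:4782858-4783107, held no match to the motifs searched), and Mmp3 at chr9:7445572-7445821 on the plus strand.
Acta2: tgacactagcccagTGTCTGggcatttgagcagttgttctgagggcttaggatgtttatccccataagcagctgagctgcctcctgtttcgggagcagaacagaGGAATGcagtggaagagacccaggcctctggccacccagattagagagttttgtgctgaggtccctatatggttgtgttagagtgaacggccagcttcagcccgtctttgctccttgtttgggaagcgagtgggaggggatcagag
Il11: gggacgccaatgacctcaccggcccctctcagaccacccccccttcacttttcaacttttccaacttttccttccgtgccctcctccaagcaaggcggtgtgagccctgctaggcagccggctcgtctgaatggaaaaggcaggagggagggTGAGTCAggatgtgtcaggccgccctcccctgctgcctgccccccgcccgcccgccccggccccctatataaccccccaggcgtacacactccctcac
Mmp3: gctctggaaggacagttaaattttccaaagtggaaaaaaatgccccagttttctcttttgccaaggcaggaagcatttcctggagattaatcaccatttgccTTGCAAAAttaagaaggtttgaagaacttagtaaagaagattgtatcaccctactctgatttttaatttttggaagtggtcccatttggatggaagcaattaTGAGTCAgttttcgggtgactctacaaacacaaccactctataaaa
The letters searched, on both strands, were the Smad-type CAGACA, the Tead-type GGAATG, the AP-1-type TGANTCA, the C/EBP-type TTGCNNAA, the NF-kappaB motif of the immunoglobulin kappa enhancer and the CArG box of serum response factor. The CArG box was searched only as CCWWWWWWGG, with W for A or T. Near matches, such as ccctatatgg and ccttgtttgg in Acta2, are therefore not marked, and their absence from the capitals does not mean that Acta2 lacks such elements. In Acta2 the capitals mark TGTCTG, the reverse complement of CAGACA, at -236 to -231, and GGAATG at -146 to -141. In Il11 they mark TGAGTCA at -98 to -92, and in Mmp3 TTGCAAAA at -148 to -141 and TGAGTCA at -46 to -40, with no overlap between matches. The shares that follow are of genes. A gene counted once if any of its listed promoters matched, so genes with more starts had more chances to match. CAGACA occurred in a promoter of 27.4% of 62 higher genes and 17.7% of 147 lower genes. It occurred in 15.1% of 7268 genes of the set and 19.3% of all 27025 genes with a promoter. For TGANTCA these shares were 12.9%, 10.2%, 5.39% and 7.82%. For GGAATG they were 21%, 16.3%, 12.3% and 14.4%, for TTGCNNAA 8.06%, 16.3%, 8.97% and 10.8%, and for the CArG box 3.23%, 0.68%, 1.4% and 1.62%. The NF-kappaB motif was in none of the promoters of higher or lower genes. It was in a promoter of 0.179% of genes of the set and 0.159% of all. A match is a description of these letters and no site of binding was measured.

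Ligands of the TGF-beta superfamily and the proteins that bind them moved in both directions, with 4 of 28 members higher and 4 lower and a median log2 ratio of 0.01. The higher genes included Ltbp2, Gdf6 and Fstl3. Ltbp2, a microfibril protein of the latent TGF-beta binding family (chromosome 12, 84829986 to 84923306, build mm39, as for all gene positions that follow), was at 590.6, 592.4 and 1998 CPM. That is 3.38-fold higher (3.31 to 3.46), while Ltbp1, Ltbp3 and Ltbp4 had log2 ratios of -0.51, -0.13 and 0.00. Fstl3, which binds activins, was 2.13-fold higher (1.92 to 2.37). The lower genes were Inhbb, Gdf10, Tgfbi and Gdf15. Inhbb, which encodes the beta B subunit of activin and inhibin (chromosome 1, 119343195 to 119349978), was at 158.3, 182.6 and 36.9 CPM, 4.29-fold lower (3.94 to 4.67). The BMP-family ligand Gdf10 was 3.18-fold lower (2.82 to 3.59), and Tgfbi, a matrix protein named for its induction by TGF-beta, was at 30.2, 29.0 and 13 CPM, 2.33-fold lower (2.00 to 2.72). Tgfb1, which encodes the ligand itself, was at 113.6 and 183.8 CPM, a 1.62-fold difference (1.53 to 1.71) short of the rule.

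Growth factors of the PDGF, VEGF, FGF and angiopoietin groups had 2 of 25 members higher and 6 lower. Pdgfc, a ligand of the PDGF receptors (chromosome 3, 80943723 to 81121347), was at 2.77, 4.21 and 19 CPM, 6.85-fold higher (5.10 to 9.38). Fgf21, an endocrine fibroblast growth factor, was 4.37-fold higher (3.25 to 5.98) at a low level of 13.1 CPM. Vegfd, a ligand of the lymphatic and vascular VEGF receptors (chromosome X, 163156374 to 163185646), was at 262.0, 207.2 and 62.8 CPM, 4.17-fold lower (3.91 to 4.45). Vegfa, the principal angiogenic member, stood at 270.7 and 372.2 CPM, inside the 2-fold limits, so the 2 VEGF genes lay on opposite sides of equality. Angptl2 was 2.50-fold lower (2.40 to 2.61) and Pros1, the gene of the anticoagulant protein S, which is also a ligand of the Axl receptor group, 2.08-fold lower (2.01 to 2.14). Gas6, the other ligand of that group, was 2.06-fold lower (1.96 to 2.16). Axl, 1 receptor gene of the group, was at 1571 and 1966 CPM.

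The insulin-like growth factor axis held the lowest log2 ratio of the whole set. Igfbp5, a secreted IGF-binding protein (chromosome 1, 72897091 to 72914043), was at 147.0, 77 and 8.30 CPM, 17.7-fold lower (15 to 21). Igfbp4 was 3.12-fold lower (2.97 to 3.27), whereas Igfbp3, Igfbp6 and Igfbp7 had log2 ratios of -0.04, -0.15 and 0.30. Pappa, the secreted protease that cleaves IGF-binding protein 4, was at 5.33, 4.09 and 10.7 CPM, 2.02-fold higher (1.58 to 2.60), at the edge of the rule. Igf1 itself was 1.56-fold lower (1.48 to 1.64), short of it. Among the matricellular CCN proteins, Ccn4 was 2.30-fold higher (2.19 to 2.40), Ccn3 3.43-fold lower (3.13 to 3.76), and Ccn2 at 987.1 and 1936 CPM with a log2 ratio of 0.97.

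Secreted Wnt regulators also split. Cthrc1, a secreted protein of activated fibroblasts, was at 3.21, 3.34 and 29.1 CPM, and the ligand Wnt5a at 10.8, 10.4 and 22 CPM, 2.04-fold higher (1.72 to 2.43), at the edge of the rule. The lower genes were all extracellular Wnt modulators: Sfrp2, Dkk3, Sfrp1 and Frzb, 4 of the 11 members. Sfrp2 (chromosome 3, 83673628 to 83681623) was at 50, 56.4 and 7.98 CPM, 6.27-fold lower (5.26 to 7.51), and Sfrp1 at 461.0, 476.2 and 186.8 CPM, 2.47-fold lower (2.37 to 2.57). Guidance molecules had 2 of 20 members higher, Sema3e (3.91-fold, 2.87 to 5.43) and Sema7a (2.34-fold, 2.11 to 2.60), and Slit3 lower (2.22-fold, 2.16 to 2.29), while its relative Slit2 was at 260.9 and 366.3 CPM.

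Of 12 interleukins and other cytokines, Il11 and Lif, both ligands of gp130 receptors, were higher and Il33, an alarmin, lower. Il11 was at 11.7, 9.62 and 40.3 CPM, 3.43-fold higher (2.95 to 4.01), and Lif at 7.83, 6.17 and 19.8 CPM, 2.53-fold higher (2.08 to 3.09). None of the 10 chemokines was higher and 4 were lower, with a median log2 ratio of -0.88. They were Cxcl5, which attracts neutrophils (29.7, 43.0 and 4.94 CPM; 6.01-fold lower, 4.81 to 7.59), the eosinophil attractant Ccl11 (3.19-fold lower, 2.95 to 3.45), Ccl9 and Ccl8. Cxcl12, which retains CXCR4-bearing cells, was at 866.4, 969.0 and 443.7 CPM with a log2 ratio of -0.97, just short of the rule, and Cxcl14 had the only ratio above 0, at 0.49. Of 14 hormones, neuropeptides and adipokines, Adm2 was higher (3.28-fold, 2.56 to 4.25) and 6 were lower. Enpp2, the gene of autotaxin, which makes lysophosphatidic acid, was at 205.5, 146.3 and 55.7 CPM, 3.69-fold lower (3.44 to 3.96). Lpar4, a receptor for that lipid, was 2.13-fold higher (1.79 to 2.54).

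In 3 lists every member that reached 10 CPM in either library had a log2 ratio below 0. These were 14 of 33 complement genes, 10 of 53 acute-phase and apolipoprotein genes and 8 of 23 matrix metalloproteinases. Some of them, such as Masp1, Hp, Ahsg and Mmp27, were in the set only through their vehicle level, which favours ratios below 0. Complement genes went from a summed 4898 CPM with vehicle to 2198 CPM with TGF-beta1, with 8 of 14 past the rule and a median log2 ratio of -1.08. Masp1, a protease of the lectin pathway, was 6.29-fold lower (4.71 to 8.54), and Serping1, the C1 inhibitor, was at 919.8, 991.4 and 360.8 CPM with vehicle, Osm and TGF-beta1. An activator and an inhibitor of the cascade were thus both lower. C4b was 2.37-fold lower (2.32 to 2.42), with 33.2% of its sequence windows shared with other transcripts, so its value is uncertain. In the acute-phase and apolipoprotein list 8 of 10 were lower. Apoe (chromosome 7, 19430034 to 19433113) was at 397.5, 349.2 and 92.9 CPM, 4.28-fold lower (4.06 to 4.51), Hp, haptoglobin, at 22.2, 43.8 and 2.98 CPM, and Ahsg, fetuin-A, at 24.3, 30.9 and 3.69 CPM.

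Matrix proteases and their inhibitors were uneven. Mmp3, stromelysin 1, whose promoter is printed above (chromosome 9, 7445822 to 7455975), was at 1149, 1390 and 353.6 CPM, 3.25-fold lower (3.16 to 3.34). Mmp27 was 3.89-fold lower (3.12 to 4.88), and Mmp8 2.24-fold lower (1.73 to 2.92). Mmp2, a gelatinase, had a log2 ratio of -0.82 and Mmp14, the membrane protease that activates it, -0.59. Of the tissue inhibitors of metalloproteinases, Timp1 and Timp3 were higher and Timp2 lower. Timp1 (chromosome X, 20736405 to 20740974) was at 604.4, 771.5 and 1497 CPM, 2.48-fold higher (2.42 to 2.53), Timp3 at 235.6, 166.1 and 701.6 CPM, 2.98-fold higher (2.88 to 3.08), and Timp2 at 1097, 993.0 and 486.6 CPM, 2.25-fold lower (2.20 to 2.31). Per length, on the scale of the authors' deposited FPKM, Timp2 stood between the others with vehicle (681.0 for Timp1, 281.8 for Timp2, 28.9 for Timp3) and with TGF-beta1 (1689, 125.1 and 86.3). In the plasmin system, Plau, urokinase (chromosome 14, 20886728 to 20893453), was at 429.6, 384.8 and 93.3 CPM, 4.61-fold lower (4.37 to 4.86). None of the 30 plasmin, coagulation and other secreted protease genes was higher and 9 were lower, the lowest being Cpxm1, a carboxypeptidase-like protein, at 469.3, 583.1 and 98.1 CPM (4.78-fold lower, 4.54 to 5.03). Of 24 ADAM and ADAMTS genes, Adamts8 was higher (6.07-fold, 4.45 to 8.46) and Adamtsl4, Adamts15 and Adamts7 lower. Adamts7 is uncertain, since Tbc1d2b, which overlaps it, had 605.8 CPM with vehicle and Adamts7 74.1 CPM.

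**Figure D3:**
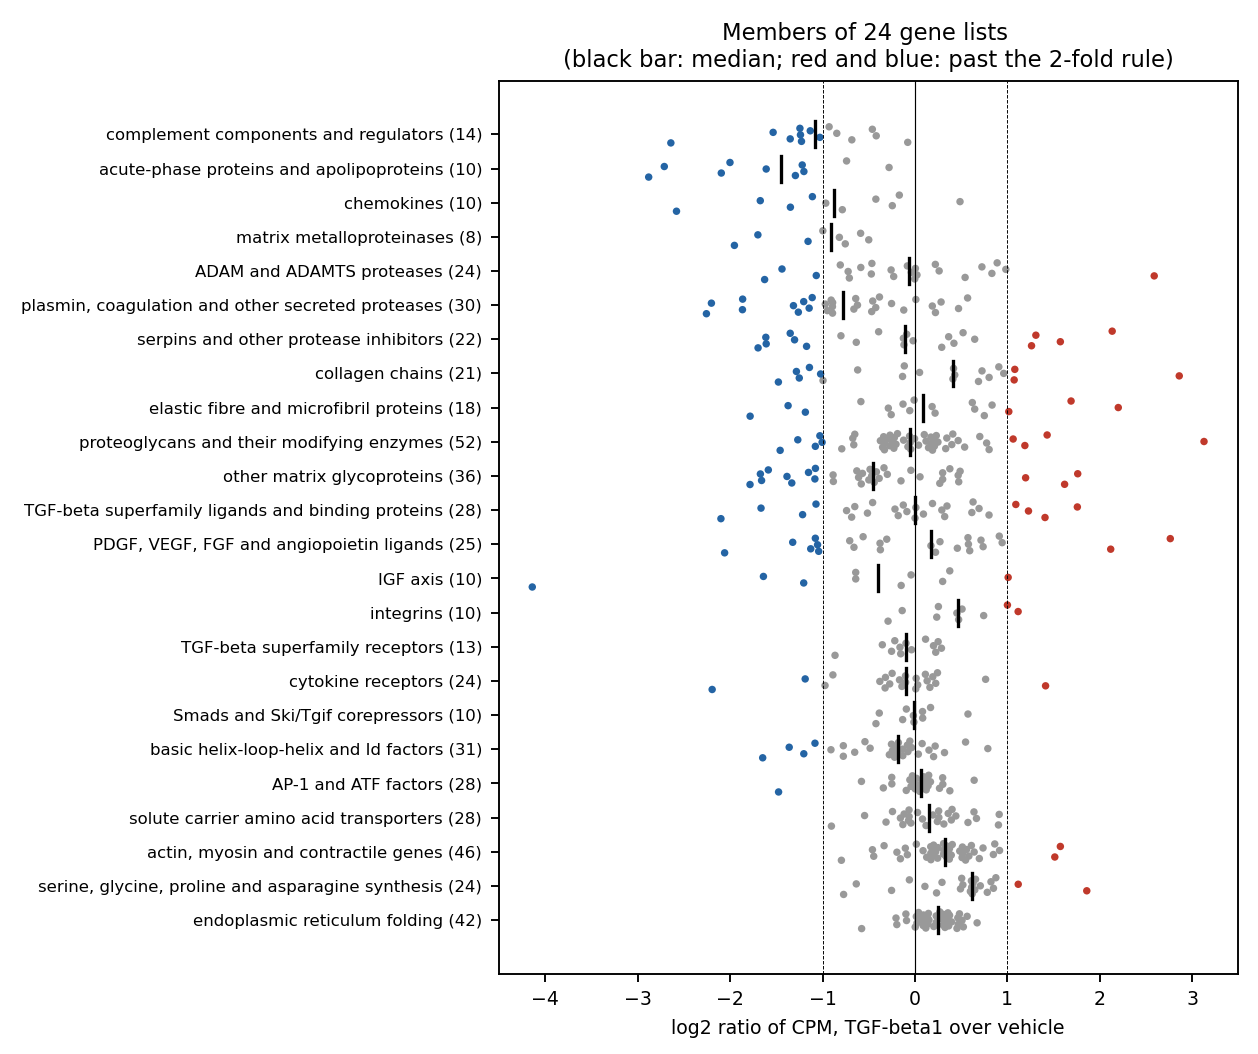
Log2 ratio of CPM, TGF-beta1 over vehicle (x axis), of each gene in 24 lists (rows, number of genes in brackets), with black bars for medians, dashed lines at -1 and 1, and red and blue points for genes past the rule. The 14 complement, 10 acute-phase and 8 metalloproteinase genes of the set all lie left of 0, while matrix lists spread to both sides. The 10 Smad and corepressor genes stay between -0.42 and 0.57.

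The matrix genes did not move as a block. Of 21 collagen chains, 3 were higher and 5 lower, with a median log2 ratio of 0.41. Col8a2, a short-chain network collagen, was at 8.91, 3.63 and 64.9 CPM, 7.29-fold higher (6.18 to 8.63), Col15a1 was 2.11-fold higher (2.05 to 2.18) and Col16a1 also passed the rule. The lower chains were Col14a1 and Col28a1 together with Col6a1, Col6a3 and Col6a5 of the beaded-filament collagen VI. Col6a3 was at 904.9, 820.9 and 410.0 CPM (2.21-fold lower, 2.15 to 2.27) and Col6a1 at 363.0, 264.7 and 178.8 CPM (2.03-fold lower, 1.95 to 2.12). The fibrillar chains Col1a1, Col5a2 and Col3a1 had log2 ratios of 0.91, 0.96 and -0.12. Per length, Col1a1 was at 653.3 FPKM with vehicle and 1227 FPKM with TGF-beta1, and Col3a1 at 629.4 and 581.9 FPKM.

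Elastic fibre genes had 3 of 18 members higher, Mfap4, Lox and Loxl2, and 3 lower, Fbln1, Fbln7 and Efemp1. Lox, the lysyl oxidase that crosslinks collagen and elastin, was at 2667, 2389 and 8606 CPM, 3.23-fold higher (3.19 to 3.26). Fbln1, fibulin 1, was at 214.0, 197.7 and 62.1 CPM, 3.45-fold lower (3.22 to 3.68). Mfap4 was at 31.1, 22.4 and 143.1 CPM and overlaps Mapk7, at 43.6 and 47.5 CPM with vehicle and TGF-beta1, while Loxl2 shares 55.1% of its windows with other transcripts, so both values are uncertain. Proteoglycan genes had 4 of 52 members higher and 5 lower. Cspg4, the transmembrane proteoglycan NG2 (chromosome 9, 56772317 to 56807154), was at 8.53, 7.38 and 74.9 CPM, 8.77-fold higher (7.43 to 10.4). The hyaluronan synthase gene Has1 was 2.71-fold higher (2.10 to 3.52). Among the small leucine-rich proteoglycans, Dcn, decorin, was at 1984, 1757 and 823.9 CPM (2.41-fold lower, 2.36 to 2.45) and Prelp was 2.75-fold lower (2.60 to 2.91), while Bgn, biglycan, was at 6318 and 6774 CPM.

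In the laminin and basement membrane list, Lama1 (chromosome 17, 68004254 to 68129642) was at 11.8, 10.6 and 58.1 CPM, 4.93-fold higher (4.25 to 5.73), and Tinagl1 3.55-fold higher (3.05 to 4.14), and none of the 14 members was lower. Of 36 other matrix glycoproteins 3 were higher and 9 lower, with a median log2 ratio of -0.45. Cilp, a cartilage intermediate layer protein, was at 353.1, 199.0 and 1198 CPM, 3.39-fold higher (3.30 to 3.49), and the matricellular protein Tnc, tenascin C, 3.07-fold higher (2.94 to 3.21). Its relative Tnxb, tenascin X (chromosome 17, 34879431 to 34938789), was at 1630, 1592 and 511.1 CPM, 3.19-fold lower (3.12 to 3.26). In the SPARC family, Sparcl1 was 3.45-fold lower (3.24 to 3.67), while Sparc was at 3973 and 5517 CPM, inside the limits. Fn1, fibronectin, was at 16670 and 12480 CPM.

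Among the receptors, none of the 13 TGF-beta superfamily receptor genes passed the rule. The share was 9.66% for all listed receptors and 3.30% for the whole set, at which a list of 13 may hold none. Tgfbr2, which binds the ligand, was at 595.6, 646.3 and 535.4 CPM, Tgfbr1 had a log2 ratio of -0.16, and the co-receptor gene Tgfbr3 was lowest at -0.87 (488.0, 517.9 and 267.9 CPM). Among receptor tyrosine kinases Kit, the stem cell factor receptor (chromosome 5, 75735576 to 75817382), was at 22.4, 23.9 and 4.50 CPM, 4.97-fold lower (3.92 to 6.37), and Ephb6, a kinase-defective ephrin receptor, 2.62-fold higher (2.17 to 3.18). Pdgfrb was 1.07-fold lower (1.05 to 1.08), inside the limits. Of 24 cytokine receptor genes 2 were lower. Csf2rb, the common beta chain for interleukin 3, interleukin 5 and GM-CSF, was 4.61-fold lower (3.47 to 6.2) and Il1r1, the interleukin 1 receptor, 2.28-fold lower (2.16 to 2.41). The gp130 gene Il6st was at 703.6 and 593.0 CPM and Osmr at 487.5 and 454.3 CPM, both inside the limits. Tnfrsf11b, osteoprotegerin, a soluble decoy for RANKL, was 2.93-fold higher (2.56 to 3.37). Of 9 innate and scavenger-type receptors, Scara5, Colec12 and Scara3 were lower, Scara5, a ferritin receptor, at 77.9, 57.0 and 18.6 CPM (4.19-fold, 3.72 to 4.73).

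Adhesion and guidance receptors included some of the largest ratios. Ncam1, the neural cell adhesion molecule (chromosome 9, 49413436 to 49710225), was at 28.4, 29.0 and 204.0 CPM, 7.19-fold higher (6.56 to 7.90). Notch4 (chromosome 17, 34783242 to 34807477) was at 2.39, 2.07 and 14.9 CPM, 6.24-fold higher (4.53 to 8.78), and Gas1, a membrane protein that binds hedgehog ligands, at 270.7, 333.1 and 60.4 CPM, 4.48-fold lower (4.20 to 4.78). Sorcs2, a sortilin-family receptor, had the highest log2 ratio of the set, 3.19, at 1.85, 4.03 and 17.1 CPM, and the endocytic receptor gene Lrp2 was 4.63-fold higher (3.43 to 6.36), while Sort1 was 2.45-fold lower (2.09 to 2.87) and Lrp3 2.13-fold lower (1.89 to 2.40). Of 10 integrin genes, 8 had ratios above 0, with a median of 0.46, but only Itgbl1, a secreted integrin-like protein (2.17-fold, 1.91 to 2.47), and Itga3 (2.01-fold, 1.56 to 2.59) passed the rule, Itga3 at its edge. Itgb1, the common beta chain, was at 1128 and 1544 CPM. Of 51 G-protein coupled receptors, F2rl1, protease-activated receptor 2, was higher (10.6, 10.5 and 36 CPM; 3.40-fold, 2.89 to 4.01), as was Lpar4, and none was lower.

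Transcription factor genes moved little: of 601 in the file's annotation 2 were higher and 8 lower, with a median log2 ratio of -0.05. The higher genes were Foxs1 and Etv4. Foxs1, a forkhead factor (chromosome 2, 152773818 to 152775128), was at 6.30, 6.86 and 18.4 CPM, 2.92-fold higher (2.36 to 3.63). Etv4, an Ets factor downstream of FGF signalling, was at 6.58, 8.18 and 13.3 CPM, 2.02-fold higher (1.62 to 2.53), at the edge of the rule. The lower genes included 3 of the Id family, which block basic helix-loop-helix factors and are classical targets of BMP signalling. Id3 (chromosome 4, 135870808 to 135873066) was at 51.6, 50.5 and 16.4 CPM, 3.14-fold lower (2.75 to 3.58), Id4 was 2.58-fold lower (1.96 to 3.43) and Id1 2.12-fold lower (1.74 to 2.60). The others included Atoh8 (2.88-fold, 2.38 to 3.52), Hlf (2.34-fold, 1.94 to 2.84), Etv1 (2.11-fold, 1.71 to 2.63) and Pparg, the nuclear receptor of adipocyte differentiation, at 25.5, 20.2 and 11 CPM (2.31-fold, 1.96 to 2.74). Etv1 shares 32.2% of its windows with other transcripts, so it is uncertain. Its deposited values were 1.112 FPKM with vehicle and 0.5274 FPKM with TGF-beta1. On that scale it fell short of the rule once 0.1 FPKM was added to each value. On the helix-loop-helix list, which holds genes outside that annotation, Epas1, the hypoxia-inducible factor 2 alpha gene, was at 770.0, 815.9 and 334.4 CPM, 2.30-fold lower (2.23 to 2.37).

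None of the 10 Smad and corepressor genes passed the rule. With 3.30% of the whole set past it, a list of 10 may hold none. Their log2 ratios ran from -0.42 for Smad6 to 0.57 for Skil, a corepressor induced by the pathway, which was at 90.4, 83.7 and 134.6 CPM. The inhibitory Smad7 was at 32.7, 28.5 and 36.7 CPM, 1.12-fold higher (1.01 to 1.26), and Smad4 at 112.2, 113.4 and 118.9 CPM, where the interval included 1. No Krüppel-like, homeobox, Sox, Stat or Zeb and Snail gene of the lists passed the rule, where 1.79% of all listed transcription factors did. Klf4 had a log2 ratio of 0.31, Sox4 of -0.47, Sox9 of -0.41, Prrx1, a mesenchymal homeobox factor, of -0.68, and the AP-1 gene Junb of 0.05.

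Transporters and channels were close to the background, with 9 of 279 past the rule. Of the solute carriers, Slc19a1, the folate carrier, was higher (2.25-fold, 1.91 to 2.67), and Slc40a1, the iron exporter ferroportin, and Slc10a6 were lower. Slc40a1 was at 12.7, 8.30 and 4.72 CPM, 2.68-fold lower (2.09 to 3.47). Slc19a1 is uncertain, since Col18a1, which overlaps it on the opposite strand, had 144.6 CPM with vehicle and Slc19a1 11.2 CPM. None of the 28 amino acid carriers or the 36 mitochondrial carriers passed the rule, where 3.23% of all listed transporters and channels did. Of these carriers 17 and 25 had ratios above 0. Among channels Kcnk2, a mechanosensitive potassium channel, was 2.88-fold higher (2.36 to 3.54). It is uncertain, since Pdcd5-ps, which overlaps it on the same strand, had 10.81 CPM with vehicle and Kcnk2 7.28 CPM. Scn7a, a sodium channel-like protein (chromosome 2, 66503769 to 66615258), was at 126.7, 112.0 and 50.4 CPM, 2.51-fold lower (2.33 to 2.72). Kcne4 was 2.13-fold lower (1.91 to 2.37). Of the ATPase list, Atp6v0d2, a proton pump subunit, was 3.79-fold lower (2.80 to 5.20) and Fxyd1, which regulates the sodium pump, 2.52-fold lower (2.11 to 3.01). The cholesterol exporter gene Abca1 was at 714.5, 770.2 and 395.4 CPM, with a log2 ratio of -0.85.

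Known genes of the TGF-beta pathway, including its targets in fibroblasts, had 9 of 47 members higher and 3 lower, with a median log2 ratio of 0.08 against 0.04 for all genes. The higher members included Cthrc1, Il11, Ltbp2, Lox, Acta2, Tagln, Postn and Loxl2, and the lower ones Id3, Tgfbi and Id1. Acta2, smooth muscle actin (chromosome 19, 34218490 to 34232990), was at 445.6, 421.7 and 1327 CPM, 2.98-fold higher (2.90 to 3.05), and Tagln, transgelin, at 318.4, 290.8 and 909.3 CPM. Of the other 44 contractile genes none passed the rule (3.30% of the whole set did), 36 had ratios above 0, and the median was 0.31. The feedback gene Pmepa1 was at 222.9 and 367.3 CPM and the oxidase gene Nox4 at 109.3 and 162.6 CPM, both inside the limits. Lrrc15, which marks TGF-beta-activated fibroblasts, did not reach 10 CPM and is outside the set, at 0.326 and 6.24 CPM. None of the 20 MAP kinase phosphatase and Sprouty genes or the 10 SOCS and PIAS genes passed the rule. Lists this short may hold none at the 3.30% of the whole set.

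Among metabolic genes, those that make serine, glycine, proline and asparagine had 20 of 24 ratios above 0 and a median of 0.61. Cth, the cystathionine lyase that makes cysteine (chromosome 3, 157599885 to 157630714), was at 10.4, 11.52 and 37.8 CPM, 3.64-fold higher (3.10 to 4.29). Pycr1, of proline synthesis, was at 34.6, 27.7 and 75 CPM, 2.17-fold higher (1.97 to 2.39), and Psat1, of serine synthesis, at 335.9 and 529.3 CPM, inside the limits. Endoplasmic reticulum folding genes had 37 of 42 ratios above 0 with none past the rule, against 3.30% of the whole set. DNA replication and nucleotide genes had 30 of 34 above 0 with only Uhrf1 past the rule (2.13-fold, 1.66 to 2.76). The lipid genes lower with TGF-beta1 were Plin4, Lpl, G0s2 and Pparg. Lpl, lipoprotein lipase, was at 1523, 1503 and 570.6 CPM, 2.67-fold lower (2.61 to 2.73), while Mgll, the monoacylglycerol lipase gene, was 2.29-fold higher (1.86 to 2.83). Of 72 oxidoreductases of aldehydes, retinoids and xenobiotics 7 were lower and none higher. Aox3, an aldehyde oxidase (chromosome 1, 58152289 to 58239857), was at 10.1, 7.89 and 0.651 CPM, 15.5-fold lower (8.68 to 30.6), and Adh1, an alcohol dehydrogenase that oxidises retinol, was 3.59-fold lower (3.06 to 4.23). Gapdh was at 58.3 and 7.27 CPM, but also at 6.74 CPM with Osm, and 59.7% of its windows occur in other transcripts, so no direction is drawn from it.

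Among genes on no functional list, some of the widest ratios were in Pamr1, a secreted protease-like protein (chromosome 2, 102380357 to 102473386), at 179.4, 147.5 and 28.7 CPM (6.25-fold lower, 5.70 to 6.86), in Ppl, periplakin (6.80-fold lower, 5.63 to 8.28), and in Sncg, gamma synuclein (6.47-fold lower, 5.13 to 8.25). Nes, the intermediate filament protein nestin, was at 20.7, 17.6 and 82.0 CPM, 3.97-fold higher (3.54 to 4.45), and Tenm4, a teneurin, 4.11-fold higher (3.19 to 5.37). Genes that passed the rule in the same direction also stood side by side on the chromosome in places, with no other gene of the set between them. Ahsg, Fetub and Kng2 on chromosome 16 (22710027 to 22848232) were all lower, as were Mmp3, Mmp8 and Mmp27 on chromosome 9 (7445822 to 7581886). Tnc and Pappa on chromosome 4 were both higher.

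The Osm library, set against the same vehicle library, differed by the rule in 6 of 8968 genes (0.0669%). Since both comparisons share that vehicle library, their ratios are not independent, and they are given side by side without a measure of likeness. The 88 genes higher with TGF-beta1 had a median log2 ratio of 1.39 there and 0.03 with Osm, and the 210 lower genes -1.33 and -0.07. The medians with TGF-beta1 are past the limit because these genes were chosen by that ratio, while Osm had no part in the choice. Of the 88 higher genes 1 also passed the rule with Osm in the same direction, Sorcs2, which had the highest ratio of the set. Sorcs2 had 34 counts with vehicle, and neither its vehicle nor its Osm level reached 10 CPM, so it is not among the 6. Of the 210 lower genes 1 did so, Gapdh, from which no direction is drawn. Whether the differences are particular to TGF-beta1 was not tested. Igfbp5 was below its vehicle level of 147.0 CPM with both ligands (77 CPM for Osm, 8.30 CPM for TGF-beta1). Cilp was below its vehicle level of 353.1 CPM with Osm (199.0 CPM) and above it with TGF-beta1 (1198 CPM). Hp and Serpina3n were above vehicle with Osm (43.8 and 397.1 CPM) and below it with TGF-beta1 (2.98 and 63.1 CPM).

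**Figure D4:**
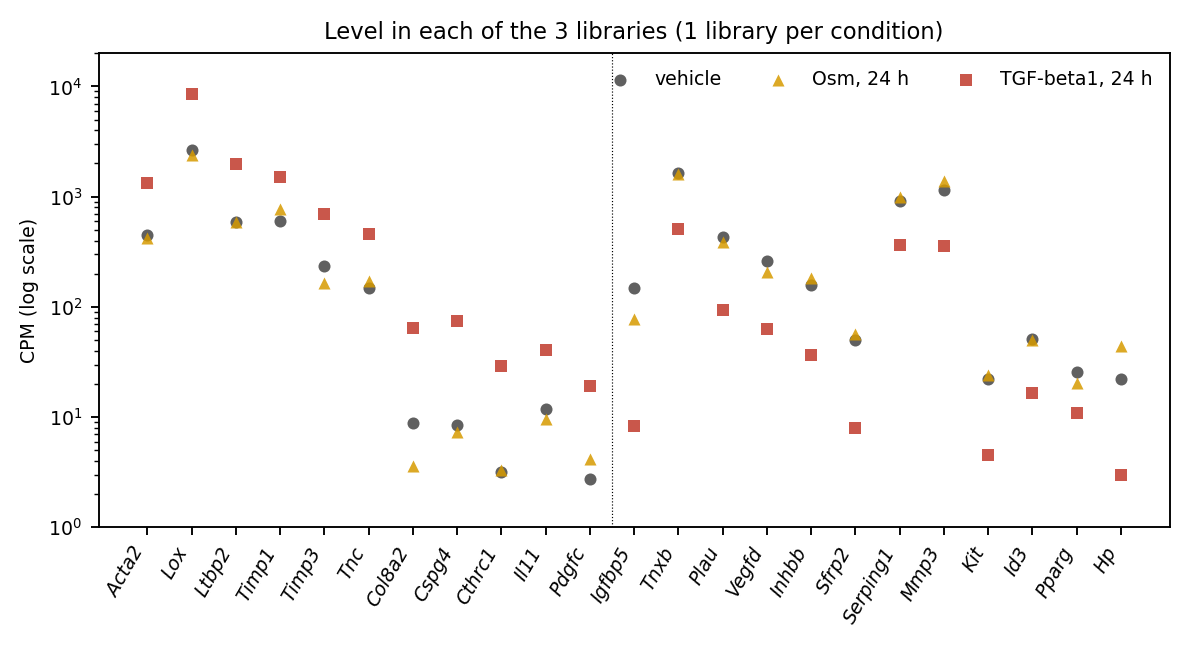
Level in each library (y axis, CPM, log scale) of genes higher with TGF-beta1 (left of the dotted line) and lower (right), 1 symbol per library: grey circles vehicle, gold triangles Osm, red squares TGF-beta1. The Osm value lies near vehicle for most, as for Acta2 at 421.7 and 445.6 CPM, and apart from it for Col8a2, Igfbp5 and Hp.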

How the data were processed

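RNA was sequenced from 1 vehicle and 1 TGF-beta1 culture, with the Osm library used only for scaling and for values given alongside. Groups come from the sample titles. Per the labels' protocols, libraries were made from polyadenylated RNA, and the text describes kits with and without strand information without saying which was used. Reads of overlapping genes can therefore not be told apart. The authors deposited whole-number read counts per gene and FPKM values (reads per length and library size) side by side. CASAVA, HISAT, HISAT2 and TopHat2 and the build mm39 are named in the submitters' processing notes. The sources used here give neither the read counter nor the annotation release.

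Counts were scaled over the 3 libraries by TMM (edgeR 4.0.16, R 4.3.3), with factors of 1.00354, 1.00195 and 0.994528 for vehicle, Osm and TGF-beta1. Totals were 18336068, 17319872 and 18533741, and the floor of 3 counts was 0.163, 0.173 and 0.163 CPM. With 1 library per group no quasi-likelihood test can be run, since no residual degrees of freedom remain. A gene passed the rule at a log2 ratio of at least 1 in size (prior count 0.5) with an exact 95% conditional binomial (Clopper-Pearson) interval that excluded 1. Printed folds are plain ratios of CPM. Reads carry no molecular identifiers, so the intervals cover counting error only and may be too narrow. The other tools were Python 3.11.15 with scipy 1.17.1, numpy 2.4.6, matplotlib 3.10.9 and pandas 2.3.3, and DESeq2 1.42.0 gave alternative size factors. The ratio and interval code was tested on simulated data.

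The members, the 75 functional lists and the 8 lists of cell type markers were chosen with earlier results of these data known. Their directions and their shares past the rule are therefore not independent evidence. Genes were named by rule: per list the 2 highest and 2 lowest ratios past the 2-fold rule and the 2 with most counts, over the set the 25 highest and 25 lowest ratios and the 10 largest CPM differences each way, up to 10 transcription factors each way, and a short fixed set of pathway genes. Genes outside the rule appear in counts of 5 or fewer, and their relatives were added after their values were seen (Ltbp1, Ltbp3, Ltbp4, Gas6, Igf1, Col6a3, Timp2 and Mmp8 among them). Of the set, 5105 genes (56.5%) overlap another gene's span. The share of 50-base windows found in transcripts of other genes was measured on GENCODE transcripts of an earlier build. At least 20% was shared for 533 genes of the set, 5 of them among the higher and 15 among the lower genes. Promoters came from the RefSeq table (GRCm38.p6). Those on chromosome 18 were left out, and the rest covered 7268 of the 9041 genes. Some results are not reported here.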

Additional observations from a re-analysis of the deposited data

How the results depend on the processing

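The counts of 88 higher and 210 lower genes stayed within 1.5 times under DESeq2 size factors (89 and 210), scaling by total counts (83 and 216), upper-quartile factors (82 and 221), the deposited FPKM values (81 and 205), a prior count of 5 (84 and 207) and a limit of 10 CPM in the mean (68 and 189). They moved by more with a limit of 1 CPM (266 higher and 477 lower), a limit of 30 CPM (50 and 128), no filter (339 and 582), a 1.5-fold rule (378 and 573), a 3-fold rule (29 and 71) and without genes that overlap another (47 and 115). Of 146 named genes past the rule, 0 changed sign under the 5 settings that alter a gene's ratio. These settings are the 3 other scalings, FPKM (with 0.1 FPKM added to each value, which draws low values together) and the prior count. That result was all but fixed in advance, since the genes were chosen for ratios past 2-fold and these settings shift a ratio little. No support is drawn from it, and the fold limits and filters cannot reverse a ratio. Etv4, Itga3, Pappa, Etv1 and Wnt5a fell short of the rule under at least 1 scaling, FPKM or prior setting. Restricting the secreted lists to genes found by symbol pattern, an alternative chosen after seeing the data, gave the 30.8% of the report. No paired analysis was possible because each group has 1 library and the labels carry no replicate numbers, and no library could be left out. With 1 culture each, differences between cultures and the effect of TGF-beta1 cannot be told apart.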

Other observations

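Outside the protein-coding genes, 90 long non-coding RNA genes reached 10 CPM in either library, and by the same rule 2 of them were higher and 8 lower with TGF-beta1. The higher ones were Rian and Gm32255. Rian, a transcript of the imprinted Dlk1-Dio3 region (chromosome 12, 109570242 to 109628150), was at 79.8, 62.4 and 179.1 CPM (vehicle, Osm, TGF-beta1), 2.24-fold higher (2.11 to 2.39). Gm32255 was at 1.79, 0.749 and 15.5 CPM. Neat1, the RNA that scaffolds nuclear paraspeckles (chromosome 19, 5874736 to 5895898), was at 226.1, 208.4 and 86.0 CPM, 2.63-fold lower (2.48 to 2.79). Gm11651 was 6.91-fold lower (5.09 to 9.56), but it overlaps Ace, which went from 1422 to 456.4 CPM, on the opposite strand. Gm45472 (2.53-fold lower, 2.14 to 2.99) overlaps Mmp2 in the same way. These non-coding genes were named after their values were seen.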
